A study of Homo sapiens with 5 samples.

Results

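The SR protein kinases are the enzymes that phosphorylate SRSF9 and the other serine/arginine-rich splicing factors. Their 6 genes, SRPK1, SRPK2, CLK1, CLK2, CLK3 and CLK4, were examined here as RNA targets of SRSF9 itself. Members were all peaks of the deposited peak table that shared at least 1 nucleotide with the gene's interval on hg19, and there were 116 of them among 80514 peaks in all. They were chosen by position, but the family was selected on the measured peak classes, which were in view when it was proposed, so those classes are given as a description and were not tested. SRSF9-bound RNA was mapped by eCLIP, which sequences the RNA fragments recovered with an immunoprecipitated protein, in HEK 293T, an established line of human embryonic kidney cells. One group of 2 libraries came from cells that overexpressed SRSF9 alone, and the other group of 2 from cells that overexpressed SRSF9 and ADAR2, an RNA-editing enzyme that turns adenosine into inosine in RNA helices. All 4 libraries therefore came from cells with added SRSF9, and cells with SRSF9 at its own level were not analysed here. The labels name an antibody against SRSF9 while their protocol names beads coupled for MYC. They also leave unsaid whether replicate libraries were made from separate cultures, and p-values then measure only the spread between these samples, which may be technical.

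SR proteins carry a tail rich in serine and arginine, and phosphorylation of its serines controls where the protein sits in the cell and how it assembles on RNA. The SRPK enzymes act mainly in the cytoplasm and allow SR proteins to be imported into the nucleus. The CLK enzymes are nuclear, add further phosphates and release SR proteins from nuclear speckles, where splicing factors are stored. Transcripts of CLK1 and CLK4 are themselves known to be spliced in alternative ways that change with the activity of these kinases.

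The values in the table are the authors' log2 ratios, 1 per library, and the table does not name the denominator. The depth behind each ratio is unknown, so single ratios have no interval. A peak is classed as present only without ADAR2, only with ADAR2, or in both conditions (shared). The columns of the table carry no replicate names, so the libraries of a condition are called first and second in the order of the columns. In all 8565 peaks present without ADAR2 and all 75751 present with it the libraries of the condition had the same sign, so agreement in sign at a member peak is a property of the table. The second SRSF9-only library had low ratios throughout the series, with a median of 0.24 over 8565 peaks against 1.07 in the first. In the libraries with ADAR2 the medians over 75751 peaks were 1.16 and 1.06. In bulk libraries, fewer cells with bound RNA and less bound RNA per cell cannot be told apart. Nor can more of a gene's RNA and more SRSF9 on the same RNA be told apart from these ratios alone.

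SRPK1 was the kinase gene at which most peaks were found only without ADAR2. Of its 16 peaks, 11 were found only without ADAR2, 5 only with it and 0 were shared. Over the whole series 5.92% of peaks were found only without ADAR2, 89.4% only with it and 4.72% were shared. At SRPK2, its close relative, the same numbers were 0, 54 and 1 of 55 peaks. CLK1 had 3 peaks of the class without ADAR2 and 8 of the class with it, CLK2 had 7 only with ADAR2 and 3 shared, and all 18 peaks at CLK3 and all 6 at CLK4 were found only with ADAR2. Across the 6 loci 14 peaks were found only without ADAR2, which is 12.1% (95% Wilson interval 7.33 to 19.2, counting error over peaks only), 98 only with it and 4 in both. SRPK1 and CLK1 held all 14, and the other 4 genes held 0 of 89. That absence is weakly bounded where peaks were few. A count of 0 was bounded at 3 counts of the total. That allows a share of up to 5.45% at SRPK2, 16.7% at CLK3, 30.0% at CLK2 and 50.0% at CLK4. For SRPK2 this bound lies below the series share of 5.92%, while its Wilson interval reaches 6.53% and includes that share. Both limits treat neighbouring peaks as independent, and whether SRPK2 differs from the series was not tested. Differences between the loci were not tested, since each condition has 1 peak set and neighbouring peaks are not independent.

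**Figure D1:**
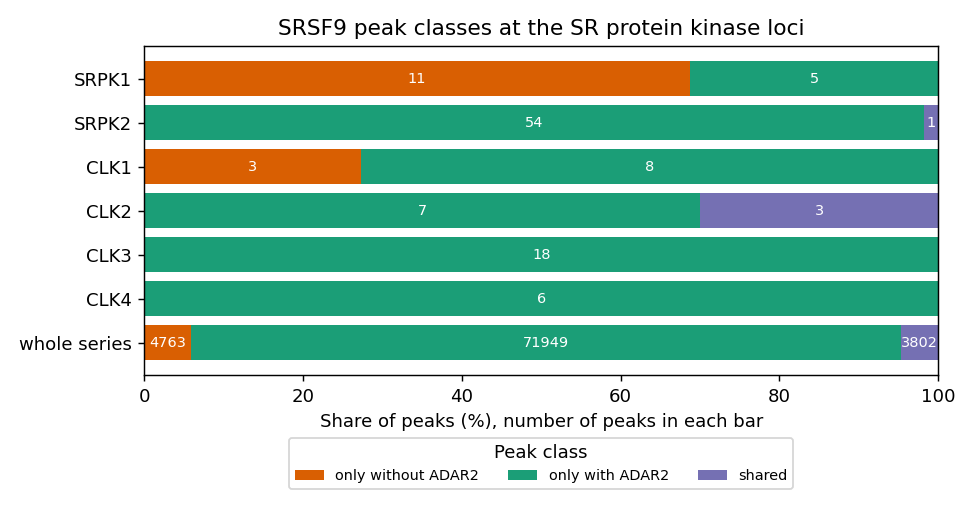
Share of peaks in each class at the 6 kinase loci and over the whole series, in percent of the locus' peaks, with the number of peaks printed in each bar. SRPK1 has 11 of 16 peaks only without ADAR2, CLK1 has 3 of 11, and no other locus has any.

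SRPK1, which phosphorylates SR proteins in the cytoplasm, occupies an interval of 89 kb on chromosome 6, from 35800001 to 35889000 on hg19. No other peak of the table lay within 100 kb on either side, the nearest being 143386 nt before the interval and 106657 nt after it. The 11 peaks found only without ADAR2 made up 68.8% of its peaks (95% Wilson interval 44.4 to 85.8). Among all 3018 windows of 100 kb with at least 10 peaks, the window holding SRPK1 had the highest share of such peaks. The median window had 4.55%, and 95% of windows had at most 23.1%. This rank is a description, since SRPK1 was taken up with that share known.

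Most of these peaks lay in the middle of the SRPK1 interval. From 35836822 to 35858683, a stretch of 21.9 kb, 9 peaks found only without ADAR2 stood beside 2 found only with ADAR2. The remaining peaks without ADAR2 lay 32.8 kb before and 30.1 kb after that stretch. In the stretch the ratios ran from 0.66 to 2.98 with a median of 1.47 in the first SRSF9-only library, and from 0.25 to 1.56 with a median of 0.81 in the second. All 9 peaks were thus above 0 in both libraries.

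The highest SRPK1 peak, found only without ADAR2 from 35838719 to 35838734, had log2 ratios of 2.98 and 1.56 without ADAR2. The peak from 35840343 to 35840355 followed with 1.98 and 1.35, and that from 35836822 to 35836850 had 1.98 and 0.85. These were the 3 highest means among the SRPK1 peaks found only without ADAR2, and in each of them the first library gave the larger value. From 35855840 to 35855877 the ratios were 1.47 and 0.69, and from 35842011 to 35842020 they were 1.47 and 0.25. From 35840490 to 35840503 they were 1.24 and 0.81, and from 35858672 to 35858683 they were 1.24 and 0.85. Those 4 peaks share a first-library value in pairs while their second-library values differ. A pair of narrow peaks, from 35856592 to 35856598 and at the single nucleotide 35856699, had the same values, 0.66 and 0.62. Within this class the outermost peaks were the weakest. Near the low-coordinate end, from 35804017 to 35804063, the ratios were 0.66 and 0.095, and from 35888821 to 35888822 at the other end they were -0.57 and -0.80.

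The 5 SRPK1 peaks with ADAR2 had no value in the other condition and lay next to peaks without ADAR2 in several places. The strongest, from 35840468 to 35840470, had 2.65 and 1.65 and lay 19 nt from a peak found only without ADAR2. From 35837254 to 35837273 the ratios were 1.07 and 1.52, at 403 nt from such a peak. From 35888831 to 35888884 they were 1.72 and 0.80, and the depleted 2-nt peak without ADAR2 lay 8 nt away. At these closest places, a peak of each class stood side by side. That they did not overlap follows from the classes, since a stretch present in both conditions is classed as shared. The other 2 were from 35885437 to 35885456, with 0.81 and 0.48, and from 35810374 to 35810380, with -0.12 and -0.36. Of the 11 peaks without ADAR2, 4 had a peak with ADAR2 within 1 kb and 7 within 10 kb. The 4 peaks from 35855840 to 35858683 lay 15369 to 18201 nt from the nearest one.

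SRPK1 peaks were narrow. Peaks found only without ADAR2 had a median width of 13 nt there, against 32 nt over the series, and 3 of the 11 were under 10 nt wide, against 10.2% over the series. With peaks under 10 nt left out, 8 without and 3 with ADAR2 remained. When both libraries had to exceed a log2 ratio of 1, SRPK1 kept 2 peaks of the class without ADAR2 and 2 of the class with ADAR2, so the former no longer outnumbered the latter. That is 18.2% and 40.0% of the SRPK1 peaks of each class, where 10.2% and 43.0% over the series met the requirement. Over the series 1.54% of the 31592 peaks that met this requirement were of the class without ADAR2. With the requirement placed on the first library alone, which avoids the low second SRSF9-only library, SRPK1 kept 7 and 3, and the series share was 6.15%.

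**Figure D2:**
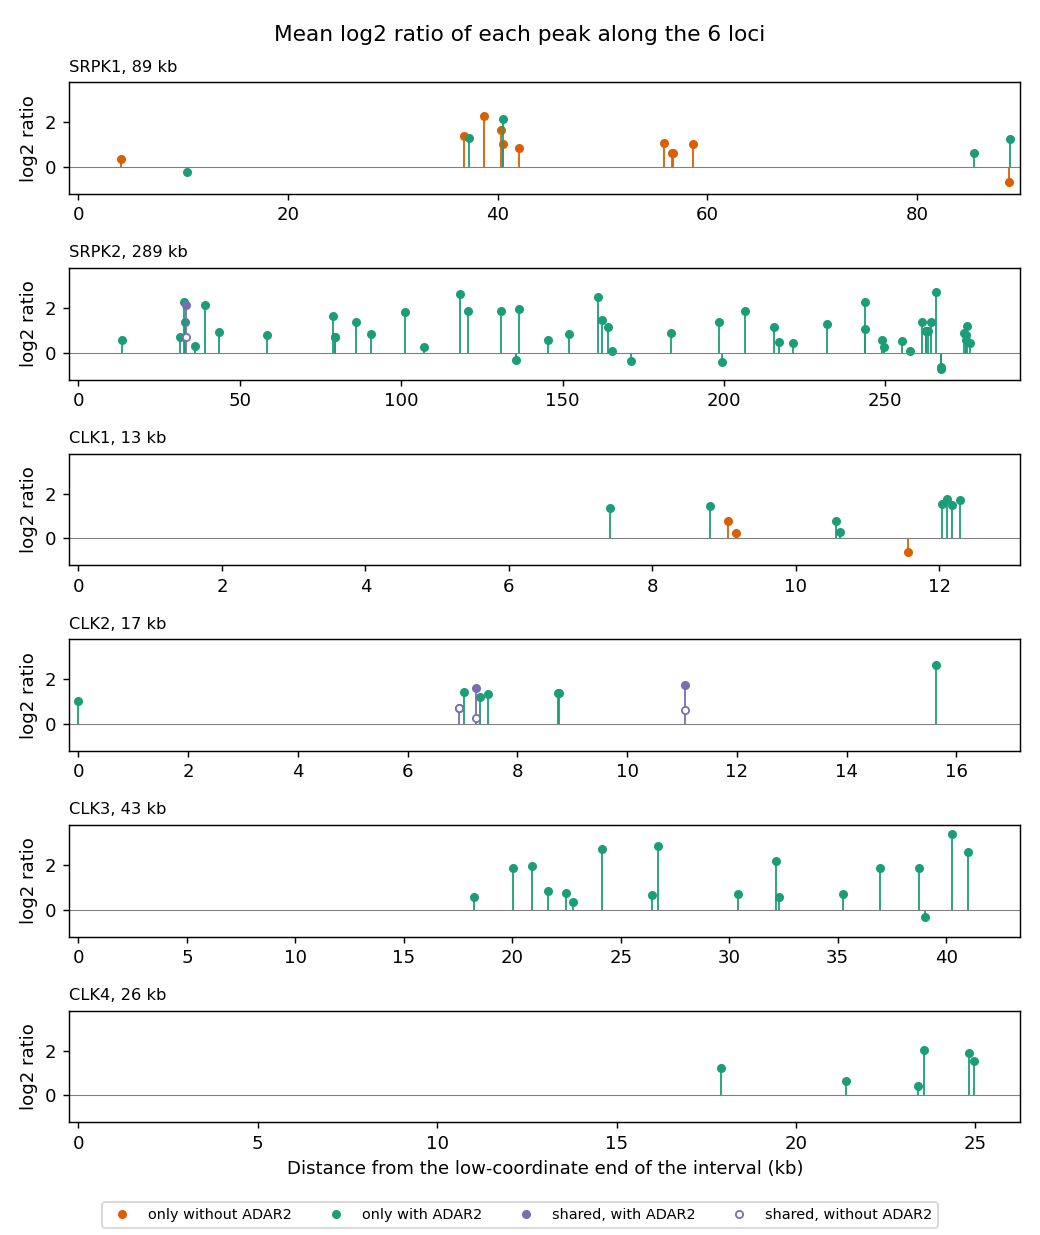
Mean log2 ratio (vertical axis) of each peak at its distance in kb from the low-coordinate end of the interval (horizontal axis, a different scale for each locus). Filled points are coloured by class, and open points give the value without ADAR2 of shared peaks, 1 of which nearly covers its filled point at CLK2. SRPK1 has its peaks without ADAR2 mostly between 36.8 and 58.7 kb, SRPK2 has peaks over most of its length, and CLK1 and CLK4 have theirs near the high-coordinate end.

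SRPK2, which also phosphorylates SR proteins before nuclear import, had more peaks than any of the other 5 genes, and its interval was also the longest. Its 55 peaks lay in 289 kb on chromosome 7, from 104751001 to 105040000, which is 1.90 per 10 kb against 1.80 at SRPK1. They were spread over the locus, with 14, 15 and 26 peaks in the 3 equal parts of the interval from low to high coordinate, and the median gap between neighbours was 2878 nt. The first 13.6 kb and the last 12.6 kb held none. The gene KMT2E overlaps SRPK2 in RefSeq's GRCh38 annotation, and the table gives no strand, so its peaks cannot be assigned to a strand.

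With ADAR2 the SRPK2 ratios ran from -0.52 to 3.07 with a median of 0.81 in the first library, and from -1.11 to 3.18 with a median of 1.06 in the second. The highest mean was at 105016801 to 105016864, with 2.29 and 3.18. A single nucleotide at 104869317 came next with 3.07 and 2.23, and the peak from 104911891 to 104911958 had 2.65 and 2.38. Only these 3 of the 54 peaks found only with ADAR2 exceeded 2 in both libraries, which is 5.56% against 9.71% over the series. Another 5 were below 0 in both libraries, or 9.26% against 7.40%. The lowest of them lay from 105018391 to 105018412, with -0.39 and -1.11. The share of SRPK2 peaks below 0 was thus near that of the series.

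The single shared SRPK2 peak lay from 104784248 to 104784278, at the low-coordinate side of the locus. In the SRSF9-only libraries its ratios were 1.24 and 0.15. With ADAR2 they were 2.39 and 1.87, so that both of these stood above both of the former. It was part of the densest kilobase of the locus, where 3 peaks spanned 655 nt, the other two being found only with ADAR2. From 104783624 to 104783646 these had 2.88 and 1.65, and from 104783982 to 104784012 they had 1.94 and 0.80.

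CLK1, a nuclear kinase that acts on the serine/arginine tails of SR proteins, was the locus with most peaks per length before merging. Its 11 peaks lay in 13 kb on chromosome 2, from 201717001 to 201730000, which is 8.46 per 10 kb. All of them fell in the last 5.60 kb, in a span of 4.92 kb, with a median gap of 142 nt. Peaks of the classes with and without ADAR2 were interleaved along that span. Each of the 3 peaks without ADAR2 had a peak with ADAR2 within 219 to 443 nt. With peaks of a class within 100 nt merged, CLK1 held 6 peaks in 13 kb and CLK2 held 9 in 17 kb. CLK2 was then the denser locus. When those within 1 kb were merged, both held 6 and CLK1 was again the denser.

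The CLK1 peaks without ADAR2 were weak in the second library. From 201726031 to 201726083 the ratios were 1.47 and 0.072, and from 201726149 to 201726168 they were 0.40 and 0.072. From 201728550 to 201728567 they were -0.079 and -1.13. None exceeded 1 in both libraries, and the third was below 0 in both. Over the series 10.2% of peaks of this class exceeded 1 and 23.4% were below 0.

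With ADAR2, CLK1 had a chain of 4 peaks at its high-coordinate end. They lay from 201729011 to 201729317 and were separated by gaps of 16 to 38 nt. The first had ratios of 1.39 and 1.71, the second 1.79 and 1.71, the third 1.79 and 1.19 and the last 1.79 and 1.65. The last 3 share 1 first-library value, and the first 2 share 1 second-library value, so these are not 4 separate measurements. All 4 exceeded 1 in both libraries, and they were the only CLK1 peaks that did. That is 50.0% of the CLK1 peaks found only with ADAR2, against 43.0% of this class over the series. With peaks of a class within 100 nt merged, CLK1 had 4 peaks with ADAR2 in place of 8, and 2 without in place of 3. The 4 others with ADAR2 were from 201724401 to 201724410 (0.92 and 1.83), from 201725797 to 201725811 (0.88 and 2.06), from 201727558 to 201727559 (1.07 and 0.48) and from 201727601 to 201727615 (0.069 and 0.48). The last was the lowest of the class at CLK1.

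CLK2, another nuclear member of the family, was the only kinase gene with more than 1 shared peak. Its interval of 17 kb on chromosome 1, from 155232001 to 155249000, held 10 peaks, 7 only with ADAR2 and 3 shared, which is 5.88 per 10 kb. All 10 were above 0 in every library in which they were present. Over the series so were 92.6% of peaks found only with ADAR2 and 2629 of 3802 shared peaks. In the libraries with ADAR2 the first gave the higher value in 10 of 10 peaks, against 61.1% of peaks over the series. The first peak, from 155231971 to 155232013, straddled the edge of the interval, next to the gene SCAMP3.

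The densest part of CLK2 spanned 555 nt, from 155238928 to 155239482, and held 5 peaks, 2 of them shared. The first shared region, from 155238928 to 155238959 (region A), had 1.14 and 0.29 in the SRSF9-only libraries and 0.94 and 0.49 in those with ADAR2. The values of the 2 conditions overlapped there. Region B, from 155239214 to 155239295, had 0.44 and 0.11 in the former and 2.19 and 1.07 in the latter. Region C, from 155242995 to 155243118, had 0.76 and 0.48, then 2.18 and 1.35, and with 124 nt it was the widest peak of all 116. In regions B and C both values with ADAR2 lay above both without.

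Of the CLK2 peaks found only with ADAR2, the strongest stood apart at the high-coordinate end, from 155247626 to 155247634, with 2.65 in both libraries. The gene HCN3 follows CLK2 on that side, and the peak may belong to either. Between and beside the shared regions, the peak from 155239010 to 155239036 had 1.72 and 1.13, that from 155239315 to 155239337 had 1.32 and 1.07, and that from 155239460 to 155239482 had 1.83 and 0.83. These peaks lay 19 to 164 nt from a shared one. A pair of peaks 5 nt apart, from 155240735 to 155240737 and from 155240743 to 155240766, had the same first value of 2.07 and second values of 0.72 and 0.70.

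Shared peaks are the only ones with values in both conditions, and none of the 4 at the kinase loci passed the test between conditions. limma was fitted to all 3645 shared regions, with 2 libraries per condition, and called 18.5% of them higher and 2.41% lower with ADAR2 at a Benjamini-Hochberg adjusted p under 0.05. At SRPK2 the mean was 0.70 ± 0.77 (SD, n = 2) without and 2.13 ± 0.37 (SD, n = 2) with ADAR2. The limma difference was 1.43 ± 0.59 (SE), with an adjusted p of 0.0655. CLK2 region B had means of 0.27 ± 0.23 and 1.63 ± 0.80 (SD, n = 2 each) and a difference of 1.36 ± 0.59 (SE, limma adjusted p = 0.0834). For region C the means were 0.62 ± 0.19 and 1.76 ± 0.59 (SD, n = 2 each), with a difference of 1.14 ± 0.59 (SE, limma adjusted p = 0.155). Region A had the same mean of 0.72 in both conditions, with SDs of 0.60 without and 0.32 with ADAR2 (limma adjusted p = 0.999).

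Both values with ADAR2 exceeded both without in 3 of the 4 regions and lay below both in 0, where the shares over all shared regions were 49.9% and 9.22%. The median difference over all shared regions was 0.62, and those of these 3 regions lay above it. After each library was centred on its median, the differences were 0.84 at SRPK2, 0.77 and 0.55 at CLK2 regions B and C, and -0.59 at region A. Leaving out 1 library moved the difference to as little as 0.89 at SRPK2 (without the second SRSF9-only library), and to 0.79 and 0.73 at regions B and C (without the first library with ADAR2). None passed after centring either, with limma adjusted p from 0.136 to 0.346. limma gave every region the same SE before centring, because its prior degrees of freedom were infinite. A p above the threshold with 2 libraries per condition does not show that the conditions were alike.

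**Figure D3:**
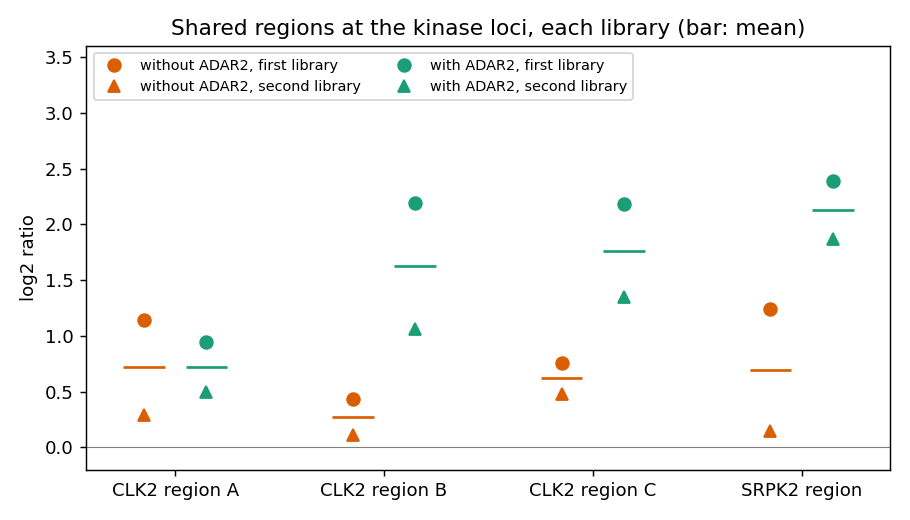
Log2 ratio of the 3 shared regions at CLK2 (A, B and C from low to high coordinate) and the 1 at SRPK2 in each of the 4 libraries, with circles for the first and triangles for the second library of a condition and a bar at their mean. The conditions overlap at CLK2 region A and do not overlap at the other 3 regions.

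CLK3 and CLK4, the remaining nuclear kinases of the family, had peaks only with ADAR2 co-expressed, the class of 89.4% of all peaks. Of the 3018 windows of 100 kb with at least 10 peaks, 45.4% likewise held no peak found only without ADAR2. CLK3 had 18 peaks in 43 kb on chromosome 15, from 74890001 to 74933000, and none in the first 18.2 kb. Its ratios ran from -0.25 to 3.24 with a median of 1.39 in the first library, and from -0.36 to 3.76 with a median of 1.22 in the second. The peak from 74930248 to 74930310, with 3.07 and 3.76, had the highest mean of all 116 peaks and was the only one above 3 in both libraries. It was followed at CLK3 by the peak from 74916711 to 74916750 with 3.07 and 2.65, that from 74914115 to 74914140 with 3.24 and 2.23, and that from 74931009 to 74931055 with 2.39 and 2.76. These 4 of 18 peaks exceeded 2 in both libraries, 22.2% against 9.71% of peaks of this class over the series, a difference that was not tested.

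Some of the CLK3 peaks may belong to a neighbouring gene. EDC3 follows CLK3 in RefSeq's GRCh38 annotation, and CLK3-AS1 overlaps it. The last 10 kb of the interval held 6 of the 18 peaks and 2 of the 4 that exceeded 2, the highest among them. The other 12 peaks lay from 74908209 to 74922293 and held the remaining 2. The lowest CLK3 peak, from 74929028 to 74929052, had -0.25 and -0.36 and was also in the last 10 kb.

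CLK4, the closest relative of CLK1, had 6 peaks in 26 kb on chromosome 5, from 178029001 to 178055000, all in the last 8.12 kb. From 178052553 to 178052584 the ratios were 1.65 and 2.38, the highest mean at CLK4. From 178053803 to 178053826 they were 1.39 and 2.38, from 178053964 to 178053975 they were 1.48 and 1.65, and from 178046881 to 178046930 they were 0.65 and 1.80. The lowest peaks lay from 178050392 to 178050420, with 0.88 and 0.38, and from 178052386 to 178052423, with 0.48 and 0.38. All 6 were above 0 in both libraries and 3 exceeded 1 in both, where the shares over the series were 92.6% and 43.0%. The nearest peak present without ADAR2 lay at least 413625 nt from any CLK4 peak and 201542 nt from any CLK3 peak. For peaks found only with ADAR2, the median of that distance was 141562 nt at SRPK2. It was 403 nt at SRPK1, 624.5 nt at CLK1 and 1439 nt at CLK2. Such distances depend on whether a locus holds peaks present without ADAR2, so they largely restate the class counts. The distance was not computed over the series.

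Across the 6 loci, as over the series, the libraries of a condition differed in a different way in each condition. Without ADAR2 the first library gave the higher ratio in 18 of 18 peaks, by a median of 0.60. Over the series 91.6% of peaks did so, and the median was 0.84. With ADAR2 it was higher in 61 of 102, by a median of 0.10, against 61.1% and 0.05 over the series. The mean ratio had a median of 0.71 over the 18 peaks and of 1.17 over the 102, against 0.70 and 1.10 over all peaks of the same conditions. For the 18 peaks the first library alone gave 1.19 and the second 0.39. Of the 98 peaks found only with ADAR2, 37 exceeded 1 in both libraries, against 43.0% over the series. By gene the share was 29.6% at SRPK2 (16 of 54), 40.0% at SRPK1, 42.9% at CLK2 and 50.0% at CLK1, CLK3 and CLK4. Another 7 of the 98 were below 0 in both, against 7.40% over the series. Of the 14 found only without ADAR2, 2 exceeded 1 in both, against 10.2% of that class over the series. Both were at SRPK1.

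**Figure D4:**
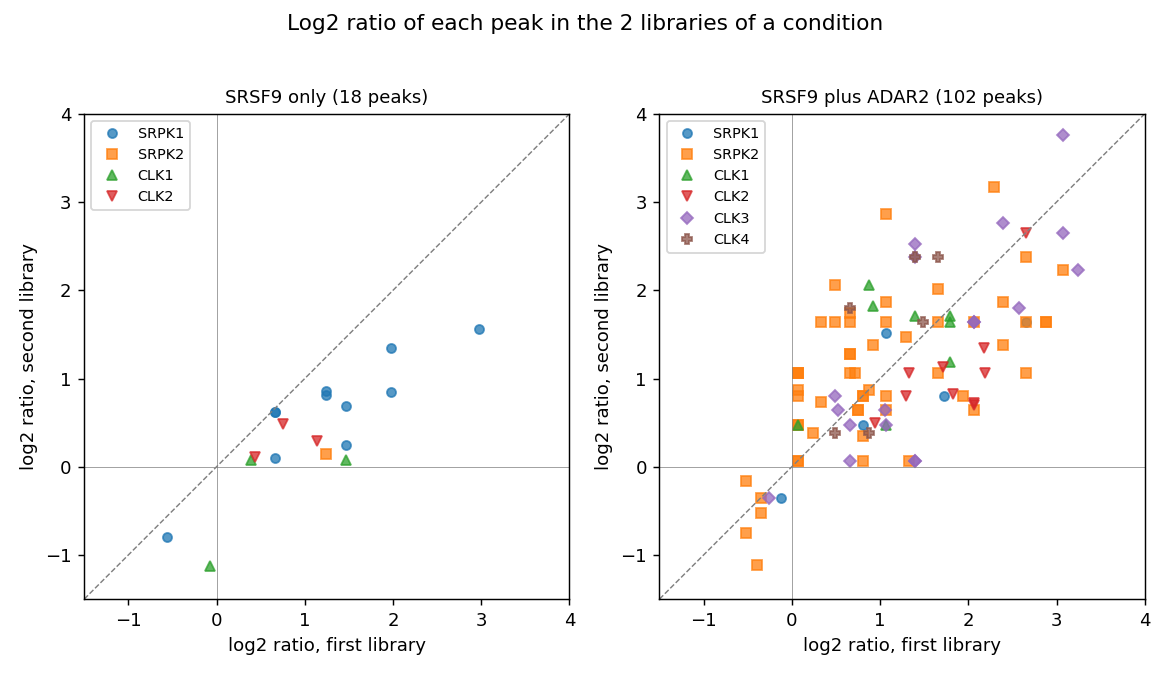
Log2 ratio in the second library (vertical axis) against the first library (horizontal axis) for the 18 peaks present without ADAR2 and the 102 present with it, by gene, with a dashed line where the libraries are equal. All 18 points without ADAR2 lie below the line, while 61 of the 102 with ADAR2 do, against 91.6% and 61.1% of peaks over the series.

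Many ratios at these loci were repeats of a few values. The 102 peaks with ADAR2 took 41 different values in the first library and 42 in the second, rounded to 3 decimals. In the first library 0.069 occurred 10 times and 1.069 occurred 8 times, and 1.069 was also the most frequent value of that library over the series, at 7.83% of peaks. In the second library 1.645 occurred 14 times, at 7.35% over the series. The 11 SRPK1 peaks without ADAR2 took 6 different values in the first library and 10 in the second. Of 110 pairs of neighbouring peaks, 4 were of the same class with equal values (within 0.0005) in both of its libraries, and 21 in at least 1. Pairs of different classes are counted among the 110 but were not compared. Differences between peaks smaller than the step between such values cannot be read from this table.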

How the data were processed

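The conditions, with 2 eCLIP libraries each, were compared, and the 1 input library was not analysed separately. The deposited table has no header, strand, gene name or read count. Its values were read as log2 ratios that the authors made per library, with the denominator not named, and 0 in both columns of a condition was taken as a placeholder for an absent peak. Positions are on hg19, per the submitters' processing notes. The sources used here do not name the aligner, the peak caller, its thresholds or any pooling of replicates. Columns were assigned to conditions through the class of each peak.

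Peaks overlapping the hg19 interval of a kinase gene by at least 1 nt were members. The members and lists were chosen with earlier results of these data known. No hg19 annotation or genome was used, so exons, introns, strands and peak sequences are not given, and the planned list of other genes of SR protein phosphorylation was not analysed here. RefSeq's GRCh38.p14 table, in which all 6 genes matched and lay on the same chromosomes, served for names of neighbouring genes only. Shared rows at the same coordinates were averaged, which left 3645 shared regions. These were compared with limma 3.58.1 in R 4.3.3 (Benjamini-Hochberg adjustment, threshold 0.05, no pseudocount because the values are logged), after the script was tested on simulated data. Shares carry 95% Wilson intervals, and a count of 0 was bounded at 3 counts of the total. Both cover counting error only. Named peaks are, per gene, all shared peaks, the highest mean of each class, the lowest mean and the peaks of the rarest class. The others printed were chosen after their values were seen. Alternatives varied the interval, ratio threshold, merging, centring and libraries.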

Additional observations from a re-analysis of the deposited data

How the results depend on the processing

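No paired analysis was possible because the columns carry no replicate number. Requiring a log2 ratio above 1 in both libraries of a condition reduced the peaks at the 6 loci to 2 of the class without ADAR2, 37 of the class with it and 0 shared, and those at SRPK1 to 2 and 2. By the first library alone, chosen after seeing the data, the numbers were 8, 52 and 1, and 7 and 3 at SRPK1. Leaving out peaks under 10 nt wide, also chosen after seeing the data, left 3 SRPK1 peaks only with ADAR2. The interval, a ratio above 0 and merging within 100 nt or 1 kb kept the totals over the 6 loci and the SRPK1 counts within 1.5 times. Merging within 1 kb took peaks found only with ADAR2 from 18 to 10 at CLK3, from 7 to 4 at CLK2 and from 8 to 4 at CLK1. With ADAR2 the first library alone had a median of 1.07 and the second of 1.06, against 1.17 for their mean. Without ADAR2 these medians were 1.19 and 0.39, against 0.71. After centring, the median of the mean ratio was 0.063 with ADAR2 and 0.052 without it. Over all shared regions limma called 675 higher and 88 lower. Centring gave 459 and 396, and regions above 0 in all 4 libraries gave 77 and 5. Leaving out 1 library gave 0 to 199 higher and 0 to 22 lower. It gave 0 in both directions without either SRSF9-only library, with 1405 and 1051 regions at an unadjusted p under 0.05. The lone library left in a condition was assumed to vary like the others. The difference at CLK2 region A, near 0, changed sign to -0.59 after centring, -0.42 without the second SRSF9-only library and -0.22 without the first library with ADAR2. Over the fits without 1 library it ranged from -0.42 to 0.43. The other 25 of 28 values for the 4 kinase regions kept their direction. Without 1 library the difference ranged from 0.89 to 1.98 at SRPK2, from 0.79 to 1.92 at CLK2 region B and from 0.73 to 1.56 at region C, and 0 of 28 passed the threshold (limma adjusted p from 0.0635 to 0.999). The cause of these changes was not tested. Unknown read depth limits every single ratio.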
